A study of Mus musculus with 14 samples.

Results

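The genes described here are 33 genes of protein folding in the endoplasmic reticulum (ER) and of the unfolded protein response, taken by symbol from the liver table of a mouse RNA-seq study and matched to its fibroblast table by Ensembl ID. All 33 were found among the 54532 genes of the tables. They comprise 5 sensors and regulators, 9 HSP70 and HSP90 chaperones and cofactors, 2 lectin chaperones, 5 protein disulfide isomerases, 10 genes of ER-associated degradation and 2 genes of protein translocation. The rule that picks them uses gene names and no measured value.

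The study asked what telomere-induced senescence does to cells in culture and in vivo, by deleting *Terf2*, the gene for the shelterin protein TRF2 that keeps chromosome ends from being read as DNA breaks. Senescent iMEFs were mouse embryonic fibroblasts of genotype Trf2F/F;Rosa-CreER, immortalized with SV40 large T antigen, given 4-hydroxytamoxifen (4HT) to activate CreER and collected on day 7 (n = 3). Control iMEFs had the same genotype and the same large T antigen and received vehicle (n = 3). Senescent livers came from Trf2F/F;Rosa-mTmG mice and control livers from Rosa-mTmG mice, all injected with AAV8-Tbg-Cre (n = 4 each). Senescent livers are labelled as week 6 after the virus. The mTmG allele is a reporter of Cre activity. No RNA library was made from cells given 4HT without loss of *Terf2*, so in iMEFs the loss cannot be told apart from exposure to 4HT and active Cre. The TBG promoter drives Cre in hepatocytes, and whole livers were sequenced, so the other cells of the liver kept *Terf2*. The sources used here do not give the ages of the mice. The labels do not say whether iMEF replicates were separately derived lines, so p-values measure the spread between these libraries.

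Proteins that enter the ER are bound by the HSP70 chaperone BiP (*Hspa5*) and its cofactors, held by the lectin chaperones calnexin and calreticulin while their sugars are trimmed, and given their disulfide bonds by the protein disulfide isomerases. When unfolded proteins accumulate, the sensors IRE1 (*Ern1*), ATF6 and PERK (*Eif2ak3*) raise transcription of chaperone and degradation genes, through spliced XBP1 and the cleaved form of ATF6, and slow translation. Proteins that fail to fold are drawn back to the cytosol and degraded by ER-associated degradation. Fibroblasts and hepatocytes both secrete large amounts of protein, collagen and other matrix proteins in the case of fibroblasts and plasma proteins in the case of hepatocytes.

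A DNA element through which ATF6 and XBP1 can act was searched in the promoters, because these genes could share it. Elements other than those named here were not searched. A gene without a match is thus not shown to lack a site for these factors. The ER stress response element (ERSE) is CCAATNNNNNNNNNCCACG, and ERSE-II is ATTGGNCCACG. Promoters from RefSeq, 250 bases before to 50 after the gene start on GRCm38.p6 (the build of mm10), were at hand for 29 of the 33 genes, without *Atf6*, *Derl1*, *Hyou1* and *Manf*. On either strand, ERSE matched in 9 of the 29 promoters (31.0%) and in 37 of the promoters of 27025 genes (0.137%). ERSE-II, which shares the CCACG site with ERSE, matched in 2 (6.9%), against 0.0444% of all promoters, and the CCACG site alone in 25 (86.2%), against 35.5%. The ERSE matches of some of these genes are shown 5′ to 3′ as the motif reads, with CCAAT and CCACG in capitals, and their positions on GRCm38.p6 follow each name. These are descriptions of letters in a window and no test of binding. The list names genes of the response that this element serves. Their higher share was therefore likely beforehand and is no result about them.
*Hspa5*, chr2:34772025-34772043, gene strand: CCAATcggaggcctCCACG
*Hsp90b1*, chr10:86705638-86705656, gene strand: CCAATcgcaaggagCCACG
*Hsp90b1*, chr10:86705533-86705551, opposite strand: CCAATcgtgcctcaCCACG
*Canx*, chr11:50325800-50325818, gene strand: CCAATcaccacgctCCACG
*Pdia6*, chr12:17266491-17266509, gene strand: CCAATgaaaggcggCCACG
*Dnajc3*, chr14:118937827-118937845, gene strand: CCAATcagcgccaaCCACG
The other ERSE matches lay in *Calr*, *Creld2*, *Derl3* and *Syvn1*, and ERSE-II matched in *Herpud1* and *Dnajb11*.

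The promoters of *Pdia6*, which fell in senescent iMEFs, of *P4hb*, which fell there too and holds no ERSE match, and of *Herpud1*, the gene with the smallest p among the 33 in livers, are printed in part, 160 bases each on the gene's strand. Capitals mark the sites CCACG (and CGTGG, its reverse complement), CCAAT of the ERSE, and ERSE-II. The stretches lie at chr12:17266385-17266544 (+) for *Pdia6*, chr11:120573254-120573413 (-) for *P4hb* and chr8:94386269-94386428 (+) for *Herpud1*. Counted from the gene start, they run from -204 to -45 for *Pdia6* and from -160 to -1 for *P4hb* and *Herpud1*. Their numbers of sites are therefore not to be compared. CCACG sites outside a stretch or across its edge, at -12 to -8 in *Pdia6* and -3 to 1 in *P4hb*, are not in capitals.
*Pdia6*: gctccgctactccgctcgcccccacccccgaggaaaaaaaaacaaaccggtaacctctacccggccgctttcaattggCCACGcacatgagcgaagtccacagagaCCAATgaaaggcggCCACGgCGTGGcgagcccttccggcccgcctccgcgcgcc
*P4hb*: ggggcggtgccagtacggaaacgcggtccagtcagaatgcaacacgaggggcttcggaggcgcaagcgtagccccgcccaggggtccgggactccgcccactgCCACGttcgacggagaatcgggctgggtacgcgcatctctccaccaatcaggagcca
*Herpud1*: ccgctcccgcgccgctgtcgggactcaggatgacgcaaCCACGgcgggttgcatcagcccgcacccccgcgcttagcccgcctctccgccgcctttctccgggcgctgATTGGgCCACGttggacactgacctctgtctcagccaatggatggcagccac

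Depth was 15364450 to 20177401 reads assigned to genes per library. Levels are given as CPM, the reads of a gene scaled to the size of its library with TMM factors, and as CPM per kilobase of exon where genes are compared with each other. *Terf2* (chromosome 8, 107069400 to 107096547 on the minus strand, GRCm38) was 0.215, 0.305 and 0.229 CPM in senescent iMEFs, against 37.7, 39.2 and 38.0 CPM in control iMEFs. In senescent livers it was 4.91, 2.84, 2.87 and 4.67 CPM, against 11.3, 13.8, 13.8 and 11.6 CPM in control livers. All libraries therefore carried the *Terf2* level of their label. Summed hepatocyte markers were 100640 to 120470 CPM in senescent livers and 91502 to 103850 CPM in control livers, and were under 1 CPM in every iMEF library. Of the 11 hepatocyte markers tested in livers, 5 had a positive and 6 a negative fold change, and 0 passed the test. Summed fibroblast markers were 6140.2 to 7212.8 CPM in senescent iMEFs, against 16374 to 17438 CPM in control iMEFs, and 6 of the 9 tested fell while 1 rose. Whether this has a part in the ER results was not tested. In livers none of the marker genes of 9 other cell types passed the test. All 8 macrophage markers had a positive fold change (summed 387.49 to 487.66 CPM in senescent livers, against 213.75 to 475.85 CPM in control livers). So did 5 of 5 tested erythroid, 3 of 3 neutrophil, 7 of 8 endothelial and 1 of 1 pancreatic acinar markers. Positive and negative were 5 and 7 for stellate cells and fibroblasts, 4 and 2 for cholangiocytes, 6 and 3 for B and plasma cells, and 3 and 2 for T and NK cells. The part of these cells in the liver results was not tested. In bulk RNA, fewer cells of a type cannot be told apart from less RNA per cell.

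The iMEF library of senescent replicate 3 stood apart. It was the highest of the 3 senescent libraries for 29 of the 32 tested ER genes (90.6%), against 40.3% of all tested genes. The ER genes lay at a median of 0.26 on the log2 scale above the mean of the senescent group in replicate 3, and at -0.15 and -0.11 in replicates 1 and 2. Over all tested genes the same medians were 0.001, -0.006 and -0.001. Reads from the mitochondrial genome made up 2.32% of the reads in genes of senescent replicate 3, against 0.853% and 0.644% in the other senescent iMEFs and 0.599% to 0.736% in control iMEFs. Whether these are related was not tested, and results are given with and without this library. Control iMEFs were close to each other, with medians of 0.003, 0.021 and -0.005 for the ER genes.

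**Figure D1:**
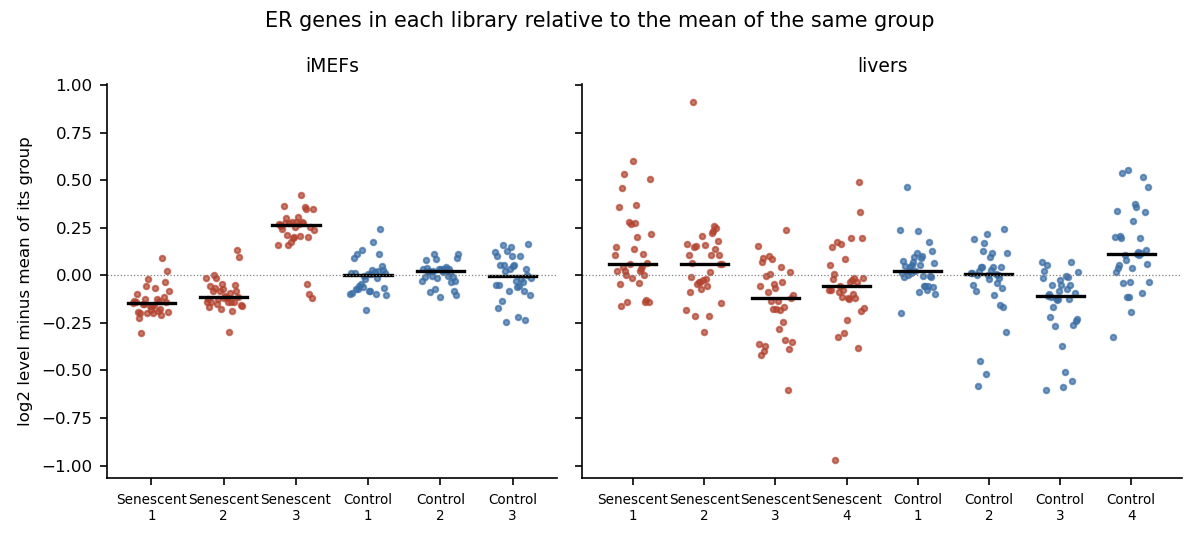
Level of each of the ER genes in each library on the log2 scale, minus the mean of the same group, for senescent and control iMEFs (32 genes) and senescent and control livers (33 genes). Points are genes and black lines are medians; senescent iMEF replicate 3 has 29 of 32 genes above its group's mean.

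Among livers, control replicate 4 was the highest control library for 19 of the 33 ER genes (57.6%, against 28.3% of all tested genes), and control replicate 3 was the lowest for 17 (51.5%, against 25.0%). Senescent replicate 3 was the lowest senescent library for 14 (42.4%, against 25.3%). The medians of the ER genes against the mean of their group were -0.12 to 0.06 in senescent livers and -0.11 to 0.11 in control livers on the log2 scale. The plot of each library against its own group shows this spread beside that of the iMEFs.

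The first 5 of the 33 genes per length were those of the folding machinery in every group. Senescent iMEFs had *Pdia3* at 390, *Calr* at 374 and *P4hb* at 295 CPM per kilobase in front, and control iMEFs had *Calr* at 427, *P4hb* at 426 and *Pdia3* at 411. The order of the first 3 in control iMEFs was within their spread. In senescent livers *P4hb* led at 495 CPM per kilobase, then *Calr* at 292, and in control livers *P4hb* led at 447, then *Calr* at 283 and *Hspa5* at 239. The degradation gene *Os9* came 6th in both liver groups, at 118 CPM per kilobase in senescent and 124 in control livers. The sensors were far lower, with *Ern1* at 4.03 CPM per kilobase in senescent iMEFs and 3.19 in control iMEFs. In livers *Ern1* was at 9.92 in senescent and 11.3 in control livers, and the regulator *Xbp1* at 60.7 and 67.3. *Derl3* was the lowest in all 4 groups, at 0.164 CPM per kilobase in senescent iMEFs and 0.245 in control iMEFs, and at 1.48 in senescent livers and 1.05 in control livers.

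In iMEFs, senescent cells differed from control cells in both directions among these genes. Of the 33 genes, 32 passed the filter on low counts, and with edgeR's quasi-likelihood test and Benjamini-Hochberg adjustment over all tested genes at 0.05, 4 rose, 9 fell and 19 did not pass. That is 40.6% of those tested, beside 39.8% of all 13561 genes tested, so the share of the ER genes was near the background. By direction the background was 18.6% higher and 21.2% lower. The median log2 fold change was -0.07, and 0.003 over all tested genes. Without senescent replicate 3 it was -0.17, and -0.0006 over all tested genes. The risers were the sensors *Ern1* and *Atf6*, the cofactor *Dnajb9* and the lectin chaperone *Canx*. Those that fell were *Eif2ak3* and *Xbp1*, the isomerases *P4hb*, *Pdia4* and *Pdia6*, the degradation genes *Sel1l*, *Edem1* and *Os9*, and the translocon gene *Sec61b*. The libraries of the 2 groups did not overlap for 4 genes that were higher and 9 that were lower, beside 24.2% and 26.4% of all tested genes.

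**Figure D2:**
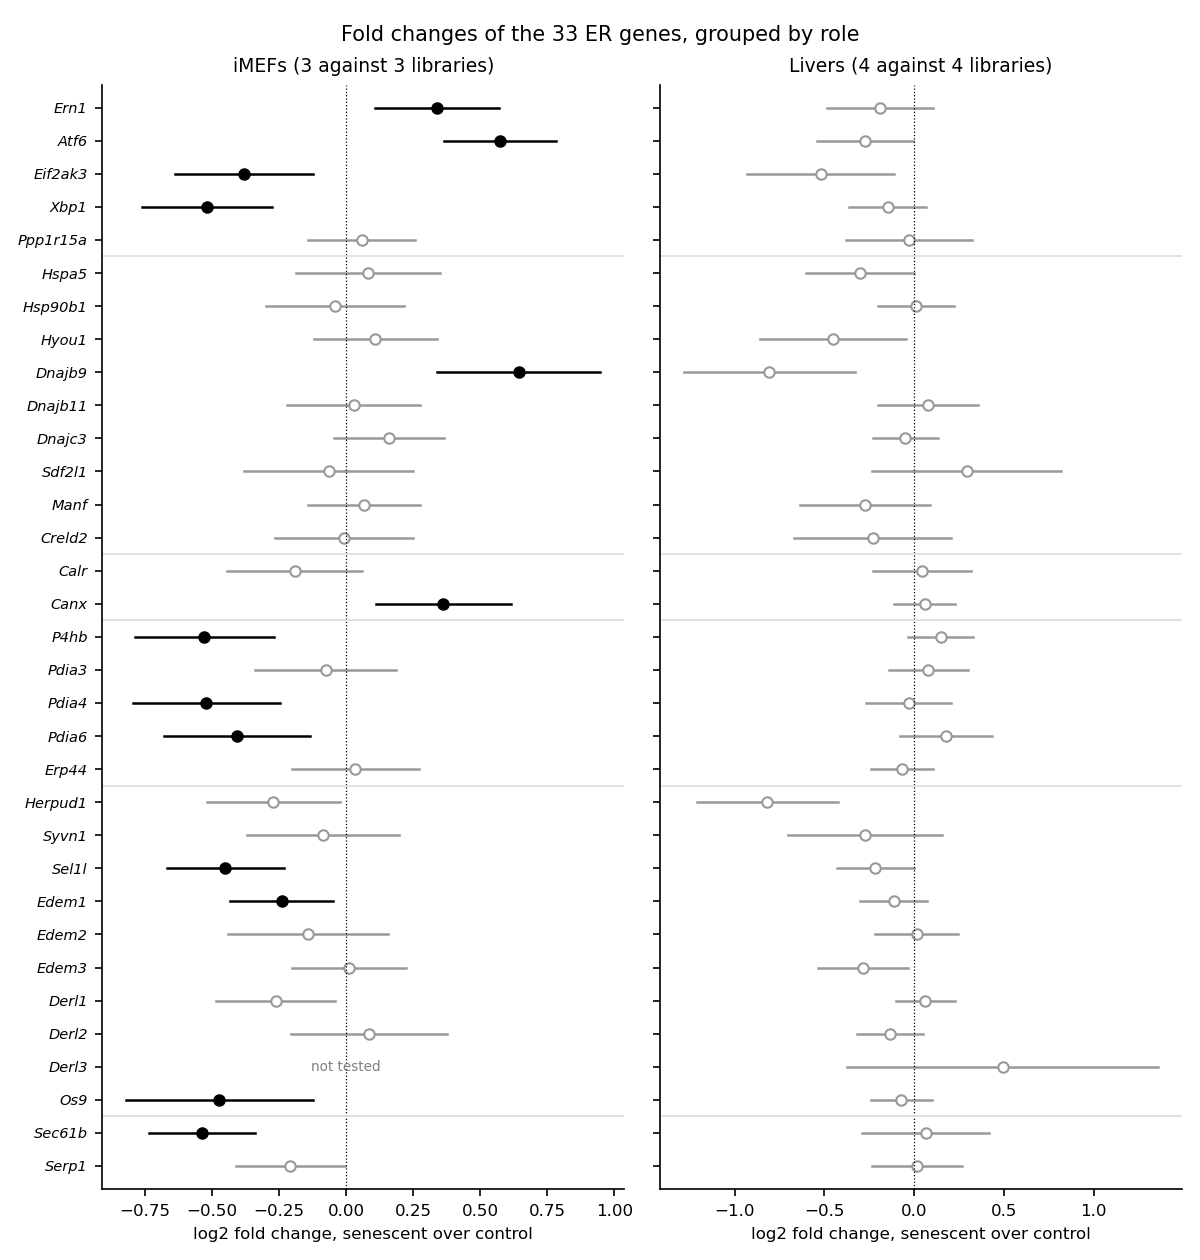
Log2 fold change, senescent over control, of the 33 ER genes in iMEFs (left) and livers (right), with 95% confidence intervals as bars. Filled black points passed an adjusted p of 0.05 and open grey points did not; 4 genes are positive and 9 negative among the black points in iMEFs, and there are 0 in livers.

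The sensors and regulators were divided. *Atf6* (ENSMUSG00000026663, chromosome 1, 170704674 to 170867771 on the minus strand, GRCm38), the sensor whose cleaved part is a transcription factor, had 102, 111 and 126 CPM in senescent iMEFs, against 70.7, 74.2 and 82.5 CPM in control iMEFs. The groups did not overlap, and every senescent library lay above every control library. The log2 fold change was 0.57 ± 0.10 (SE), with an adjusted p of 5.13e-04 by edgeR's quasi-likelihood test. *Ern1*, the kinase and RNase that splices *Xbp1* mRNA, had 32.4, 28.9 and 37.5 CPM in senescent iMEFs, against 25.7, 25.8 and 26.6 CPM in control iMEFs. The control libraries were within 1.04 times of each other and all below the senescent ones (log2 fold change 0.34 ± 0.11 SE, adjusted p = 0.0237 by edgeR).

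*Xbp1* (ENSMUSG00000020484, chromosome 11, 5520659 to 5525893 on the plus strand, GRCm38), the transcription factor downstream of IRE1, had 41.6, 39.4 and 52.0 CPM in senescent iMEFs, against 59.0, 68.6 and 62.8 CPM in control iMEFs. It fell by 0.52 on the log2 scale (SE 0.11, adjusted p = 0.00281 by edgeR), and the groups did not overlap. Counts per gene do not tell spliced from unspliced *Xbp1* mRNA. *Eif2ak3*, the kinase PERK that phosphorylates eIF2α, had 29.5, 31.9 and 41.1 CPM in senescent iMEFs, against 44.2, 47.1 and 41.8 CPM in control iMEFs. Senescent replicate 3 came within 1 CPM of the lowest control library, and the gene fell by 0.38 (SE 0.12, adjusted p = 0.0231 by edgeR). Of its exon bases, 8.05% are shared with a gene on the other strand, and the sources used here do not state whether strand was used in counting. *Ppp1r15a*, the phosphatase subunit that reverses the phosphorylation of eIF2α, had 42.1, 38.1 and 38.3 CPM in senescent iMEFs, against 41.0, 37.0 and 35.8 CPM in control iMEFs. These groups overlapped, and the 95% interval of its log2 fold change ran between -0.14 and 0.26.

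Of the 9 HSP70 and HSP90 chaperones and cofactors, 1 rose and 8 did not pass. The riser was *Dnajb9* (ENSMUSG00000014905, chromosome 12, 44205559 to 44210326 on the minus strand, GRCm38), a J-domain cofactor of BiP also known as ERdj4, with 29.4, 36.3 and 44.7 CPM in senescent iMEFs, against 22.3, 22.1 and 26.2 CPM in control iMEFs. All senescent libraries were above all control libraries, at a log2 fold change of 0.64 ± 0.14 (SE) and an adjusted p of 0.00309 by edgeR. It was the largest rise among the 32 tested ER genes. *Hspa5* (BiP) had 888, 943 and 1257 CPM in senescent iMEFs, against 919, 990 and 1010 CPM in control iMEFs. Senescent replicate 3 was above all control libraries, replicate 1 below them and replicate 2 among them, and the 95% interval was -0.19 to 0.35.

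The other 7 genes of this group had log2 fold changes between -0.07 and 0.16. They are *Hsp90b1* (GRP94, the HSP90 of the ER) at -0.04, *Hyou1* (GRP170, an exchange factor of BiP) at 0.11, the J-domain cofactors *Dnajb11* at 0.03 and *Dnajc3* at 0.16, *Sdf2l1*, a partner of *Dnajb11*, at -0.07, and the secreted stress-responsive proteins *Manf* at 0.07 and *Creld2* at -0.01. Of these, *Hsp90b1* and *Manf* share 15.7% and 9.25% of their exon bases with other genes. Without senescent replicate 3, *Hsp90b1* passed the test as lower (-0.18), and *Hspa5*, *Hyou1*, *Dnajb11* and *Manf* had negative values between -0.11 and -0.03.

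The lectin chaperones bind monoglucosylated glycoproteins, calnexin at the membrane and calreticulin in the lumen. *Canx* had 771, 779 and 1022 CPM in senescent iMEFs, against 625, 662 and 713 CPM in control iMEFs. It rose by 0.36 on the log2 scale (SE 0.12, adjusted p = 0.0254 by edgeR) without overlap of the groups. *Calr* had 973, 970 and 1289 CPM in senescent iMEFs, against 1242, 1260 and 1188 CPM in control iMEFs. Its senescent replicates 1 and 2 were below and replicate 3 above all control libraries, and the value of -0.19 did not pass (adjusted p = 0.212 by edgeR). The difference between these paralogs was not tested.

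The protein disulfide isomerases held 3 of the 9 genes that fell. *P4hb* (ENSMUSG00000025130, chromosome 11, 120560298 to 120573253 on the minus strand, GRCm38), which encodes PDI, also a subunit of the collagen prolyl hydroxylase, had 735, 783 and 1016 CPM in senescent iMEFs, against 1232, 1248 and 1173 CPM in control iMEFs. It fell by 0.53 on the log2 scale (SE 0.12, adjusted p = 0.00382 by edgeR). Every senescent library was below every control library, with replicate 3 the nearest. *Pdia4* (ERp72) had 163, 162 and 236 CPM in senescent iMEFs, against 265, 275 and 264 CPM in control iMEFs, a fall of 0.52 (SE 0.13, adjusted p = 0.00608 by edgeR). *Pdia6* (P5), the gene with the ERSE match printed above, had 259, 271 and 380 CPM in senescent iMEFs, against 408, 404 and 392 CPM in control iMEFs, a fall of 0.41 (SE 0.13, adjusted p = 0.0215 by edgeR). In both genes the control libraries lay close together and above the senescent ones. *Pdia3* (ERp57), the isomerase that works with the lectin chaperones, was at -0.08 and *Erp44*, which retains client proteins of the early secretory pathway, at 0.03, and neither passed. The summed CPM of the 5 isomerases was 2342.8 to 3208.5 in senescent iMEFs and 3190.9 to 3311.4 in control iMEFs.

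**Figure D3:**
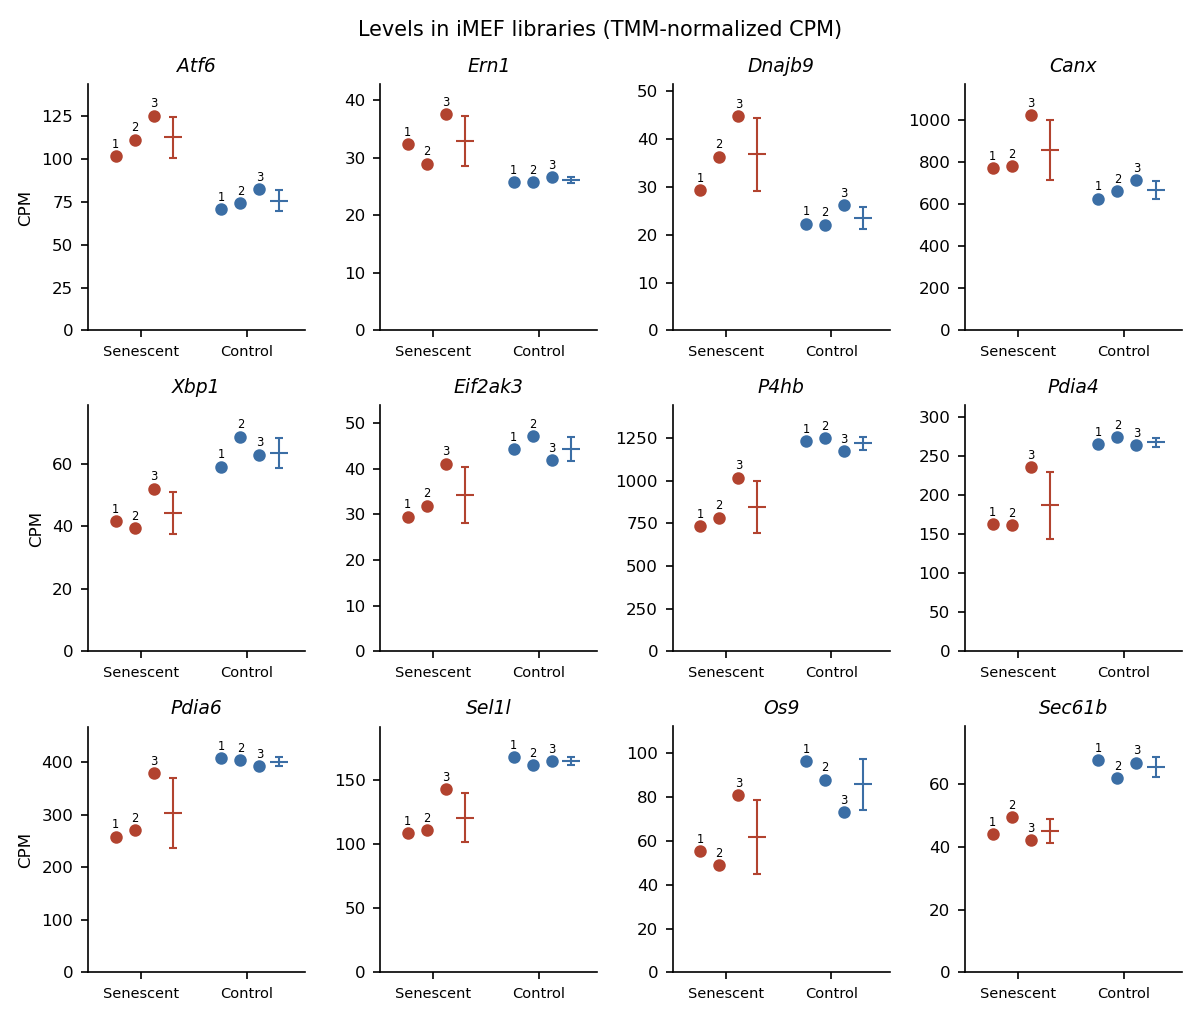
CPM (y axis, from 0) of 12 ER genes in senescent iMEFs (left, red) and control iMEFs (right, blue), 3 libraries each, numbered by replicate, with mean and SD beside them. *Atf6*, *Ern1*, *Dnajb9* and *Canx* lie higher in senescent iMEFs and the other 8 lower; senescent replicate 3 is the highest of its group in all but *Sec61b*.

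In ER-associated degradation, 0 of the 9 tested genes rose and 3 fell. *Sel1l* (ENSMUSG00000020964, chromosome 12, 91806043 to 91849157 on the minus strand, GRCm38), the adaptor of the ubiquitin ligase HRD1, had 108, 110 and 142 CPM in senescent iMEFs, against 167, 161 and 165 CPM in control iMEFs. The groups did not overlap, and the gene fell by 0.45 on the log2 scale (SE 0.10, adjusted p = 0.00376 by edgeR). *Os9*, a lectin that brings glycoproteins to HRD1, fell by 0.47 (SE 0.16, adjusted p = 0.0332), and *Edem1*, which acts in the trimming of mannose from glycoproteins to be degraded, by 0.24 (SE 0.09, adjusted p = 0.0449 by edgeR). *Os9* groups overlapped, at 55.4, 49.0 and 81.0 CPM in senescent iMEFs, against 96.3, 87.9 and 73.1 CPM in control iMEFs. *Edem1* had 90.0, 98.9 and 112 CPM in senescent iMEFs, against 114, 120 and 120 CPM in control iMEFs.

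The other 6 tested degradation genes did not pass. *Herpud1*, a membrane protein of the HRD1 complex, was at -0.27 (adjusted p = 0.0763 by edgeR) and *Derl1*, a derlin of the retrotranslocation machinery, at -0.26 (adjusted p = 0.0594 by edgeR). *Syvn1*, which encodes HRD1 itself, was at -0.09, *Edem2* at -0.14, *Edem3* at 0.01 and *Derl2* at 0.09. *Derl3* was not tested in iMEFs, with a mean of 0.327 CPM in senescent iMEFs and 0.488 CPM in control iMEFs.

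*Sec61b* (ENSMUSG00000053317, chromosome 4, 47474658 to 47483242 on the plus strand, GRCm38), the β subunit of the translocon, had 43.9, 49.3 and 42.0 CPM in senescent iMEFs, against 67.5, 61.7 and 66.7 CPM in control iMEFs. All senescent libraries were below all control libraries, and the gene fell by 0.54 (SE 0.09, adjusted p = 5.8e-04 by edgeR), the largest fall among the 32 tested ER genes. It was also the gene among those called in which replicate 3 was not the highest senescent library. *Serp1*, a protein that stabilizes new membrane proteins at the translocon, was at -0.21 and did not pass (adjusted p = 0.0971 by edgeR), although its groups did not overlap.

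Without senescent replicate 3 the same 4 genes were called higher, and 15 of 32 were called lower in place of 9, beside 22.5% of all genes in that fit. The genes gained were *Hsp90b1*, *Calr*, *Pdia3*, *Herpud1*, *Syvn1* and *Derl1*. Without control replicate 1 or 2, or senescent replicate 1 or 2, 5 were called lower, since *Eif2ak3*, *Pdia6*, *Os9* and *Edem1* lost their call. *Edem1* also lost it without control replicate 3 and with RLE or upper-quartile factors, and without either of the control replicates 1 and 2 *Ern1* and *Canx* lost their call. *Atf6*, *Dnajb9*, *Xbp1*, *P4hb*, *Pdia4*, *Sel1l* and *Sec61b* were called under every omission of a library. Over all tested genes, 2213 and 2168 were called lower without control replicates 1 and 2, beside 2878 with all libraries. Without senescent replicates 1 and 2 they were 2359 and 2619. The number of calls thus moved with the library left out, over all genes as well, and these 7 genes kept theirs.

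ERSE in the promoter did not go with 1 direction in iMEFs. Of the 9 genes with a match 8 were tested, of which *Canx* rose and *Pdia6* fell, and their median log2 fold change was -0.02. Of the 20 genes with a promoter in the table and no ERSE match, 2 rose and 8 fell, with a median of -0.18. Among these 20 are *Herpud1* and *Dnajb11*, which had an ERSE-II match. These are counts over few genes, and the difference between the groups was not tested.

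The other genes of the ER, from lists of folding, degradation, translocation and regulator genes and of targets of ATF4 and CHOP, numbered 186 tested in iMEFs, of which 19 rose and 51 fell (37.6%, beside 39.8% of all tested genes, with 18.6% higher and 21.2% lower). The total was near that background, and the counts of the single lists stand against the same shares. Among folding genes 1 of 46 rose and 16 fell. The falls included *Serpinh1*, the collagen chaperone HSP47, at -1.16, the prolyl isomerases *Fkbp7* at -1.40 and *Fkbp14* at -1.09, and *Kdelr3*, a receptor that returns ER proteins from the Golgi, at -0.99. Among degradation genes 1 of 33 rose and 7 fell, with *Ubxn6* at -0.79, *Tmub1* at -0.71, *Selenok* at -0.41 and *Ube2j2* at -0.30. Among translocation genes 4 of 38 rose and 6 fell, with *Sec61g*, the γ subunit of the translocon, at -0.87, *Tram2* at -0.55, *Ostc*, a subunit of the oligosaccharyltransferase, at -0.43 and *Sec61a2* higher at 0.44.

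Of 24 tested regulators, 4 rose and 6 fell. *Creb3l1* (OASIS), an ER-bound transcription factor of secretory and matrix genes, averaged 28.1 ± 6.84 CPM in senescent iMEFs and 104 ± 2.06 CPM in control iMEFs (SD, n = 3 each), a fall of 1.89 on the log2 scale. *Creb3l2* was at -0.81, *Nck1* at -0.42 and *Map3k5* (ASK1), a stress kinase that IRE1 can engage, at 0.67. Of the 45 tested ATF4 and CHOP targets, 9 rose and 16 fell, 55.6% in all. *Gdf15*, a secreted stress cytokine, rose by 2.93 on the log2 scale, *Atf3* by 1.56 and *Sesn2* by 0.94, and *Pycr1*, an enzyme of proline synthesis, fell by 0.80. *Gdf15*, *Atf3* and *Sesn2* are also known as targets of p53.

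In livers none of the 33 genes passed the test. All were tested, and 49 of 14270 genes (0.343%) were called, 0.308% higher and 0.035% lower. At an unadjusted p under 0.05, 7 of the 33 were lower and 0 higher, beside 3.39% and 4.15% of all tested genes. DESeq2 called 2 of the 33, *Herpud1* and *Dnajb9*, both lower, where it called 0.204% of all genes lower. The median log2 fold change was -0.07, and -0.004 over all tested genes. The 95% intervals lay within 1 on either side of 0 for 30 of the 33 genes and within 0.5 for 21.

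*Herpud1* (ENSMUSG00000031770, chromosome 8, 94386438 to 94395377 on the plus strand, GRCm38), a target of the response that carries the ERSE-II element printed above, had 212, 113, 133 and 119 CPM in senescent livers, against 298, 250, 250 and 222 CPM in control livers. It was the only 1 of the 33 genes whose liver groups did not overlap, where 1.96% of all tested genes were lower without overlap. Its senescent replicate 1 lay close to the lowest control library. The log2 fold change was -0.82 ± 0.18 (SE), with an adjusted p of 0.112 by edgeR. Without senescent replicate 1 the adjusted p was 0.00162 by edgeR, at a log2 fold change of -1.06.

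*Dnajb9* had 50.6, 30.2, 34.9 and 28.0 CPM in senescent livers, against 61.8, 44.7, 56.3 and 88.7 CPM in control livers. Senescent replicate 1 was above control replicate 2, and the other senescent libraries were below every control library. The log2 fold change was -0.81 ± 0.22 (SE), with an adjusted p of 0.304 by edgeR.

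The other 5 genes below an unadjusted p of 0.05 were *Eif2ak3* at -0.52, *Hyou1* at -0.45, *Hspa5* at -0.30, *Edem3* at -0.29 and *Atf6* at -0.27, all with an adjusted p of 0.538 or more by edgeR. *Eif2ak3* had 16.2, 14.8, 16.5 and 14.8 CPM in senescent livers, against 23.0, 15.01, 19.7 and 31.6 CPM in control livers. *Hspa5* had 986, 802, 742 and 748 CPM in senescent livers, against 1037, 1017, 770 and 1215 CPM in control livers. In *Hspa5* and *Hyou1*, control replicate 3 lay among the senescent livers and control replicate 4 above all others. These are the control livers that were lowest and highest for the most ER genes.

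**Figure D4:**
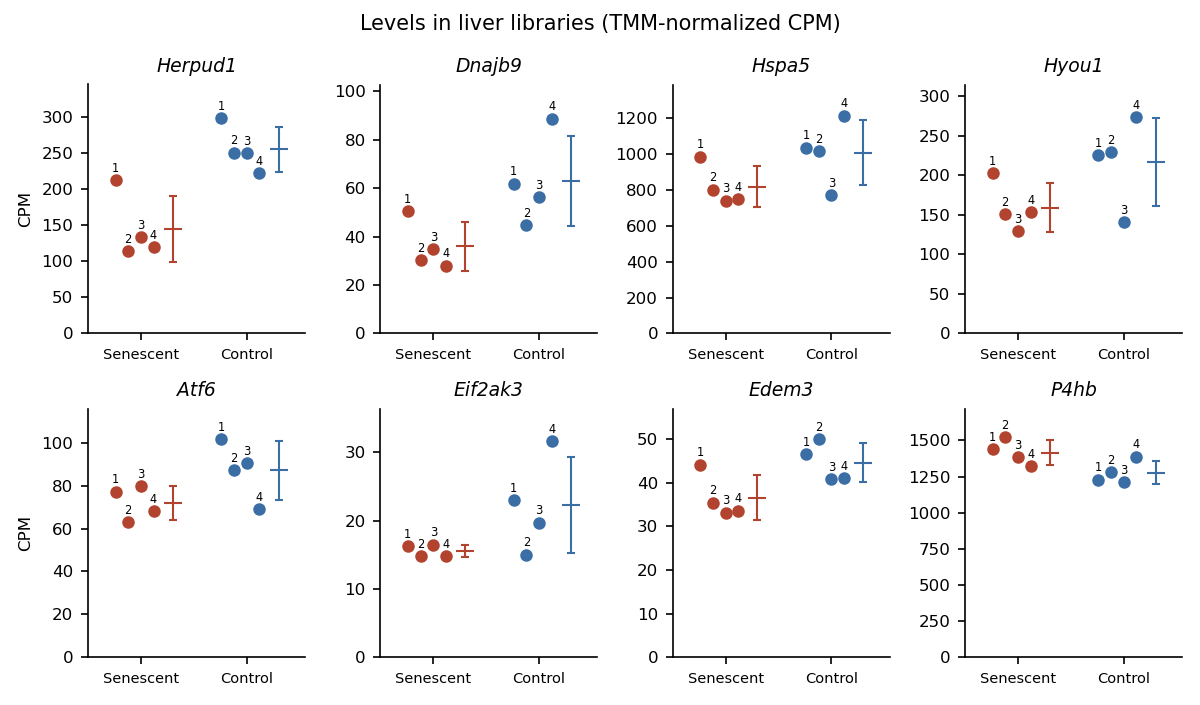
CPM (y axis, from 0) of 8 ER genes in senescent livers (left, red) and control livers (right, blue), 4 libraries each, numbered by replicate, with mean and SD beside them. *Herpud1* is the gene without overlap, 113 to 212 CPM in senescent livers and 222 to 298 CPM in control livers; the other 7 overlap.

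The sensors and regulators in liver all had negative values, except that *Ppp1r15a* was at 0.009 with upper-quartile factors and ranged between -0.11 and 0.08 when each library was left out, and 0 of 5 passed. *Atf6* had 77.2, 63.0, 79.6 and 67.9 CPM in senescent livers, against 102, 87.1, 90.6 and 68.9 CPM in control livers, with control replicate 4 within the senescent range. *Ern1* had 96.4, 92.3, 70.7 and 64.9 CPM in senescent livers, against 93.4, 107, 84.4 and 85.1 CPM in control livers (log2 fold change -0.19), and *Xbp1* had 228, 205, 182 and 174 CPM in senescent livers, against 204, 237, 221 and 213 CPM in control livers (-0.15). Both genes overlapped between the groups. *Ppp1r15a* had 9.08, 9.98, 10.7 and 6.95 CPM in senescent livers, against 10.5, 8.39, 9.79 and 8.77 CPM in control livers (-0.03, with a 95% interval of -0.38 to 0.32).

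Of the remaining chaperones, *Sdf2l1* was at 0.29, *Dnajb11* at 0.08, *Hsp90b1* at 0.01, *Dnajc3* at -0.05, *Creld2* at -0.23 and *Manf* at -0.28. *Calr* was at 0.04, *Canx* at 0.06, *Pdia3* at 0.08, *Pdia4* at -0.03, *Pdia6* at 0.18, *P4hb* at 0.15 and *Erp44* at -0.07. In degradation, *Sel1l* was at -0.22, *Syvn1* at -0.27, *Edem1* at -0.11, *Edem2* at 0.01, *Derl1* at 0.06, *Derl2* at -0.14 and *Os9* at -0.07, and in translocation *Sec61b* was at 0.06 and *Serp1* at 0.02. None of these passed.

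*Derl3*, a derlin found in secretory cells, had 3.58, 4.89, 1.97 and 1.33 CPM in senescent livers, against 2.79, 1.35, 1.89 and 2.33 CPM in control livers. The groups overlapped, and the interval of its log2 fold change, -0.37 to 1.36, was the widest of the list. Summed B cell and plasma cell markers, cells that express *Derl3*, were 33.7, 31.8, 35.2 and 89.8 CPM in senescent livers, against 26.9, 21.5, 28.4 and 44.2 CPM in control livers. Their part in the level of *Derl3* was not tested.

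Of the other ER genes, 0 of 179 fell in livers and 1 rose (0.559%). That gene was *Gdf15*, which averaged 28.3 ± 9.76 CPM in senescent livers and 11.7 ± 2.44 CPM in control livers (SD, n = 4 each). The fold change of 1.28 on the log2 scale had an adjusted p of 0.0341 by edgeR. It was not called by limma-voom, nor by edgeR when control replicate 1, 2 or 3 or senescent replicate 2 or 3 was left out, with adjusted p-values of up to 0.119.

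The effects in the 2 tissues were compared directly, as the log2 fold change in livers minus that in iMEFs, in 1 edgeR fit over the 14 libraries. The 2 comparisons also differ in culture, time of collection, extent of *Terf2* loss, exposure to 4HT and active Cre in the controls. These cannot be told apart from tissue. Of 32 genes tested in both, 4 differed (12.5%), beside 17.1% of all 11693 genes, 9.69% positive and 7.41% negative. *Dnajb9* had a difference of -1.45 ± 0.30 (SE, adjusted p = 0.00351 by edgeR), being at -0.81 in livers and 0.64 in iMEFs. *Atf6* had a difference of -0.85 ± 0.17 (adjusted p = 0.00234 by edgeR), being at -0.27 in livers and 0.57 in iMEFs. The opposite sign was seen in the isomerases *P4hb*, at 0.15 in livers and -0.53 in iMEFs (difference 0.68 ± 0.15, adjusted p = 0.00538 by edgeR), and *Pdia6*, at 0.18 in livers and -0.41 in iMEFs (difference 0.58 ± 0.19, adjusted p = 0.0391 by edgeR).

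*P4hb* had 1438, 1521, 1382 and 1322 CPM in senescent livers, against 1230, 1281, 1214 and 1388 CPM in control livers. Control replicate 4 was the only 1 of its group within the senescent range. *Pdia6* had 306, 338, 224 and 277 CPM in senescent livers, against 244, 251, 245 and 275 CPM in control livers, with senescent replicate 3 below them all. The call of *Pdia6* was lost under most omissions of a library, when the number of positive differences ranged between 1 and 6, while *Dnajb9*, *Atf6* and *P4hb* were called under every omission. Over all 11693 genes the positive differences ranged between 740 and 1226 under the omissions. For the genes that did not pass, the intervals of the difference reached beyond 0.5 in 22 of 28 and a like effect in both tissues is not shown by them.

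**Figure D5:**
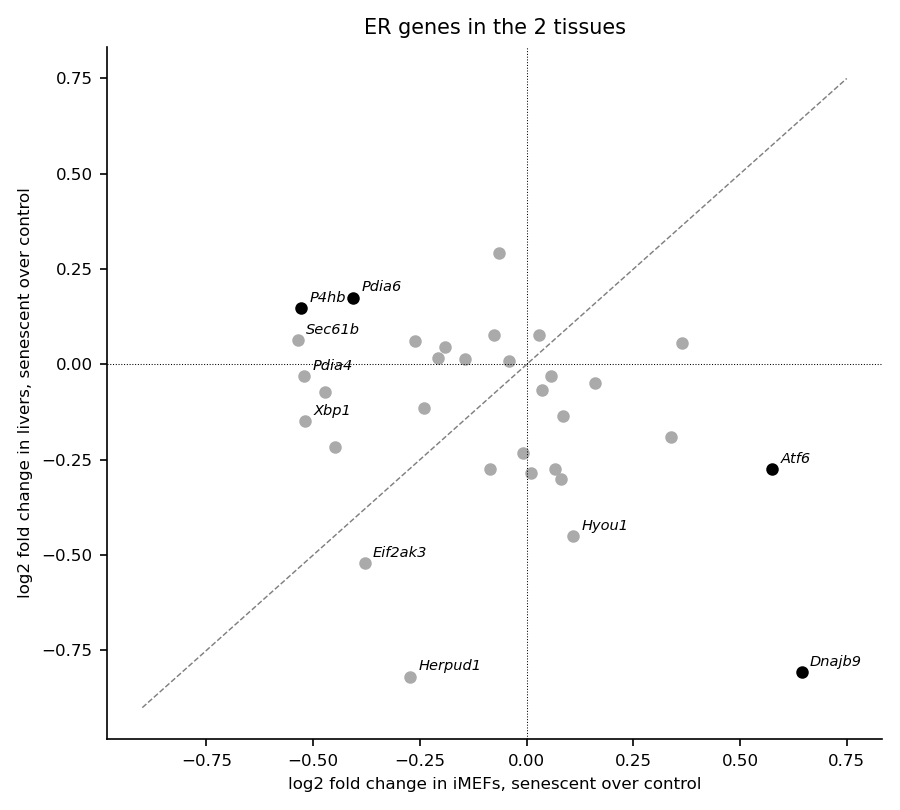
Log2 fold change, senescent over control, of 32 ER genes in livers (y axis) against iMEFs (x axis); the dashed line marks equal values. Black points are the 4 genes whose effect differed between tissues, *Dnajb9* and *Atf6* at the lower right and *P4hb* and *Pdia6* at the upper left.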

How the data were processed

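RNA was sequenced from 3 libraries each of senescent and control iMEFs and 4 each of senescent and control livers. The authors deposited raw counts of reads per gene, 1 table per tissue, for which the submitters' processing notes name STAR, featureCounts and mm10. The sources used here give no versions, strand setting or annotation release. The deposited DESeq2-normalized tables were not used.

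Each tissue was fitted with edgeR 4.0.16 (R 4.3.3): filterByExpr, TMM factors, the quasi-likelihood test without a block, and Benjamini-Hochberg adjustment over all tested genes at 0.05. Log2 fold changes are unshrunk coefficients, with 95% intervals. The difference between tissues was tested as an interaction over 14 libraries on 11693 genes. Exon lengths and overlaps came from GENCODE M21, promoters from RefSeq (GRCm38.p6). The code was tested on simulated data. Depth was 15364450 to 20177401 reads in genes, and intervals cover the spread between libraries.

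The members, lists, tests and alternatives were chosen with earlier results of these data known. Every member is named. Values in every library are given for the sensors, for up to 8 called members with the smallest p per tissue and for members that differ between tissues, and others were added after their values were seen. From each other list up to 4 called genes with the smallest p per tissue are named. Alternatives were DESeq2 1.42.0, RLE and upper-quartile factors, no filter, limma-voom (limma 3.58.1), a threshold of 0.01, a block for the replicate number and leaving out each library. Tables and figures were made with Python 3.11.15, pandas 2.3.3, numpy 2.4.6 and matplotlib 3.10.9.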

Additional observations from a re-analysis of the deposited data

Results flagged for a closer look

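In control livers, replicate 2 was the lowest for *Canx*, at 401.34 CPM, with 419, 423 and 420 CPM in replicates 1, 3 and 4. The highest of the 4 was 1.05 times the lowest, and replicate 2 stood out because the other replicates lay close together. About 1 in 20 groups of 4 is picked out this way by chance, and 33 genes were looked at in each liver group.

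The log2 fold change of senescent over control samples was compared between tissues, as livers minus iMEFs, in edgeR's interaction fit. Among the 33 genes it differed for *Atf6* (-0.85), *Dnajb9* (-1.45), *P4hb* (0.68) and *Pdia6* (0.58). Among the other ER genes it differed for the folding genes *Fkbp14* (0.997), *Fkbp7* (1.36) and *Serpinh1* (1.37), for the degradation genes *Ubxn6* (0.76), *Selenok* (0.42), *Tmub1* (0.87) and *Ube2j2* (0.38), and for the translocation genes *Sec61g* (0.98) and *Tram2* (0.62). It also differed for the regulators *Creb3l1* (2.09) and *Map3k5* (-0.75), and for *Gdf15* (-1.65) and *Pycr1* (1.59) among the ATF4 and CHOP targets. These other genes had been taken from their lists for a small p in 1 tissue, so that their differences are descriptions. The targeted gene *Terf2* differed by 5.55, being at -1.72 in livers and -7.27 in iMEFs.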

How the results depend on the processing

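In iMEFs the counts of the 32 tested ER genes called higher and lower were 4 and 8 with RLE or upper-quartile factors, 4 and 11 without a filter, 4 and 9 with limma-voom and 4 and 10 with DESeq2, beside 4 and 9. At an adjusted p of 0.01, 2 were higher and 5 lower. Leaving out each library in turn gave 2 to 4 higher and 5 to 15 lower. Over all tested genes, higher and lower calls were 2630 and 2769 with RLE and 2832 and 2605 with upper-quartile factors. They were 2556 and 3073 without a filter, 2466 and 2892 with limma-voom and 2295 and 2662 with DESeq2, beside 2522 and 2878. The omissions gave 1624 to 2790 higher and 2168 to 3117 lower over all tested genes. In livers 2 were lower without a filter and with DESeq2, and 0 to 1 when each library was left out, where 0 were higher. Over all tested genes in livers, 33 were lower without a filter and 33 with DESeq2, beside 5. The omissions gave 2 to 10 lower there. Of the differences, 4 were positive with DESeq2 and 1 at an adjusted p of 0.01, and leaving out each library gave 1 to 6 positive and 2 to 5 negative. Over all genes tested in both tissues, 1341 differences were positive with DESeq2, beside 1133. The omissions gave 740 to 1226 positive and 520 to 965 negative over these genes. The causes were not tested.

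Correlations of the deviations of same-numbered libraries were -0.171 to -0.005 in iMEFs and -0.083 to 0.237 in livers. With so few libraries, a pairing of the samples by number was neither shown nor excluded. With the replicate number as a block, 4 were higher and 8 lower in iMEFs, where *Os9* was not called (adjusted p = 0.0631 by edgeR), and *Herpud1* was the 1 called lower in livers (adjusted p = 0.0137 by edgeR). Over all tested genes the block gave 2101 higher and 2595 lower in iMEFs, and 35 higher and 7 lower in livers. *Gdf15* in livers was not called with the block (adjusted p = 0.0724 by edgeR).

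Signs turned for genes near 0. In iMEFs *Creld2* was at 0.006 with RLE and 0.0243 with upper-quartile factors, and *Edem3* at -0.0059 without a filter. In livers *Ppp1r15a* was at 0.009 and *Pdia4* at 0.0082 with upper-quartile factors. Leaving out each library gave, in iMEFs, -0.0743 to 0.183 for *Hspa5*, -0.1817 to 0.0461 for *Hsp90b1*, -0.0261 to 0.1916 for *Hyou1*, -0.1095 to 0.1307 for *Dnajb11*, -0.1794 to 0.0578 for *Sdf2l1*, -0.0309 to 0.1298 for *Manf*, -0.1357 to 0.0685 for *Creld2*, -0.0612 to 0.118 for *Erp44*, -0.2705 to 0.0175 for *Syvn1*, -0.0705 to 0.0737 for *Edem3* and -0.1067 to 0.201 for *Derl2*. The ranges in livers were -0.1107 to 0.082 for *Ppp1r15a*, -0.0419 to 0.0684 for *Hsp90b1*, -0.0165 to 0.1531 for *Calr*, -0.1122 to 0.0398 for *Pdia4*, -0.0661 to 0.0604 for *Edem2*, -0.0552 to 0.1862 for *Sec61b* and -0.0587 to 0.1061 for *Serp1*. The ranges for the difference between tissues were -0.2917 to 0.0771 for *Eif2ak3*, -0.1729 to 0.0207 for *Ppp1r15a*, -0.024 to 0.1926 for *Hsp90b1*, -0.0409 to 0.188 for *Dnajb11* and -0.2895 to 0.0016 for *Sesn2*.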
